A study of Mus musculus with 6 samples.

Results

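The genes described here are the nuclear genes of respiratory complex I in mouse CD8+ T cells, with and without overexpression of PTMA. They were taken as the rows of the deposited gene table whose symbol begins with Nduf and whose listed transcript types include protein coding. This gave 47 genes of 27480 rows, of which 15362 are protein coding. By name they comprise 7 core subunits (among them Ndufs1, Ndufs7 and Ndufv1), 30 accessory subunits, 8 assembly factors (Ndufaf) and the pair Ndufa4 and Ndufa4l2. A further 6 Nduf rows are processed pseudogenes and were not counted as members. All 47 passed the filter on low counts, Ndufa4l2 with only 0 to 33 counts per library. Ndufb1-ps carries a pseudogene-like symbol, but the table lists it as protein coding, and it was kept.

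Complex I is the NADH:ubiquinone oxidoreductase of the inner mitochondrial membrane. It passes electrons from NADH through a flavin and a chain of iron-sulfur clusters to ubiquinone and pumps protons. Core subunits do this work, some encoded in the nucleus and some, in the membrane, by mitochondrial DNA. Accessory subunits surround and stabilise them. Below, core subunits means the nuclear ones. Dedicated assembly factors build it stepwise and are not part of the finished enzyme. When CD8+ T cells are activated through their receptor they enlarge their mitochondria and increase respiration, and complex I regenerates the NAD+ that growing cells use.

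RNA was measured by bulk sequencing in 6 libraries of OT1 CD8+ T cells, which carry a transgenic receptor for a peptide of ovalbumin (OVA). Every library was labelled wild type in genotype and came from cells given OVA peptide for 48 h. In 3 libraries (vector 1 to 3) the cells carried the empty overexpression vector, and in 3 (PTMA 1 to 3) they carried a vector that overexpresses prothymosin alpha (PTMA), a highly acidic protein of the nucleus. The sole comparison of the design is PTMA against vector. The labels used here name neither the age of the mice, nor the promoter of the construct, nor how the cells received it. They also do not tie the libraries of a group to separate mice or cultures, so the p-values reflect the variation among these 6 libraries and possibly no more than technical variation. In bulk RNA, fewer cells of a type and less RNA per cell cannot be told apart.

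Total counts per library ran from 54989408 to 66767589, and the Nduf genes together took 0.359 to 0.429% of them. Markers of CD8 T cells (8 of 8 tested) summed to 5926 to 6534 CPM (counts scaled to the library size, here with TMM factors) in every library. Oocyte genes (6 of 6 tested, 1 called lower in PTMA) summed to 22.4 to 31.5 CPM with the vector and to 1.86 to 5.02 CPM with PTMA, and myeloid and dendritic genes (7 of 9 in the table) to 6.24 to 8.97 and 12.7 to 14.9 CPM. Markers of CD8 T cells, fibroblasts, keratinocytes and erythroid cells each summed highest in vector 3, the last at only 0.387 CPM. Fibroblast genes (3 of 3 in the table) summed to 7.19 CPM there and to 1.09 to 2.99 CPM elsewhere, and keratinocyte genes (4 of 4) to 27.1 CPM there, 18.9 CPM in vector 2 and 1.37 to 10.2 CPM elsewhere. CD4 T cell (3 of 3), B cell (4 of 5), NK cell (3 of 3) and erythroid genes (2 of 3) ranged over libraries from 2.72 to 4.55, 3.95 to 6.69, 40.9 to 50.1 and 0 to 0.387 CPM. Not all of these markers passed the filter. Tested were 5 myeloid and dendritic, 1 fibroblast, 4 keratinocyte, 3 CD4 T cell, 3 B cell, 2 NK cell and 0 erythroid genes. Outside the oocyte list no tested marker was called (edgeR). Their part in the Nduf values was not tested. Ptma had 848, 783 and 1146 CPM across vector 1, 2 and 3 and 1152, 1346 and 1272 CPM across PTMA 1, 2 and 3 (edgeR, adjusted p = 0.951). Vector 3 stood apart from vector 1 and vector 2 in the Nduf genes, in Ptma and in mitochondrially encoded RNA (2.64% of counts in vector 3 and 1.86% in vector 2), so results are given with and without it.

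Complex I genes differed widely in RNA level. Levels are compared between genes in the deposited FPKM, which divide each count by a gene length close to the union of all annotated exons, and, because that length can far exceed the main mRNA, also in CPM per kilobase of the principal transcript. The median over genes was 60.4 FPKM for core subunits, 49.7 FPKM for accessory subunits and 10.2 FPKM for assembly factors, against 3.10 FPKM over all 16592 genes tested. Per kilobase of principal transcript the medians were 106, 85.2 and 18.5 CPM. On both scales the median assembly factor was thus several times below the median subunit of either kind.

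The highest FPKM was that of Ndufa1, a small accessory subunit of the membrane arm, with 182, 172 and 191 FPKM in vector 1, 2 and 3 and 176, 209 and 189 FPKM in PTMA 1, 2 and 3. Ndufb9 followed at 149.5 FPKM and Ndufa2 at 146 FPKM, means of 6 libraries, and these lay below the Ndufa1 values in all libraries while overlapping each other. The lowest detected subunit was Ndufb2 of the membrane arm at 6.28 FPKM, and the lowest assembly factor was Ndufaf2 at 2.75 FPKM. Ndufa4l2 was near the detection limit, at 0.172 FPKM. The order depends on the length used: per kilobase of principal transcript Ndufb8 was first of 47 (282 CPM) where it was number 18 in FPKM, Ndufb7 was number 3 (236 CPM) where it was number 28, and Ndufa1 was number 4 (208 CPM). Ndufb8 and Ndufb7, picked after their values were seen, have unions of exons of 3146 and 4522 bases but principal transcripts of 680 and 623 bases.

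**Figure D1:**
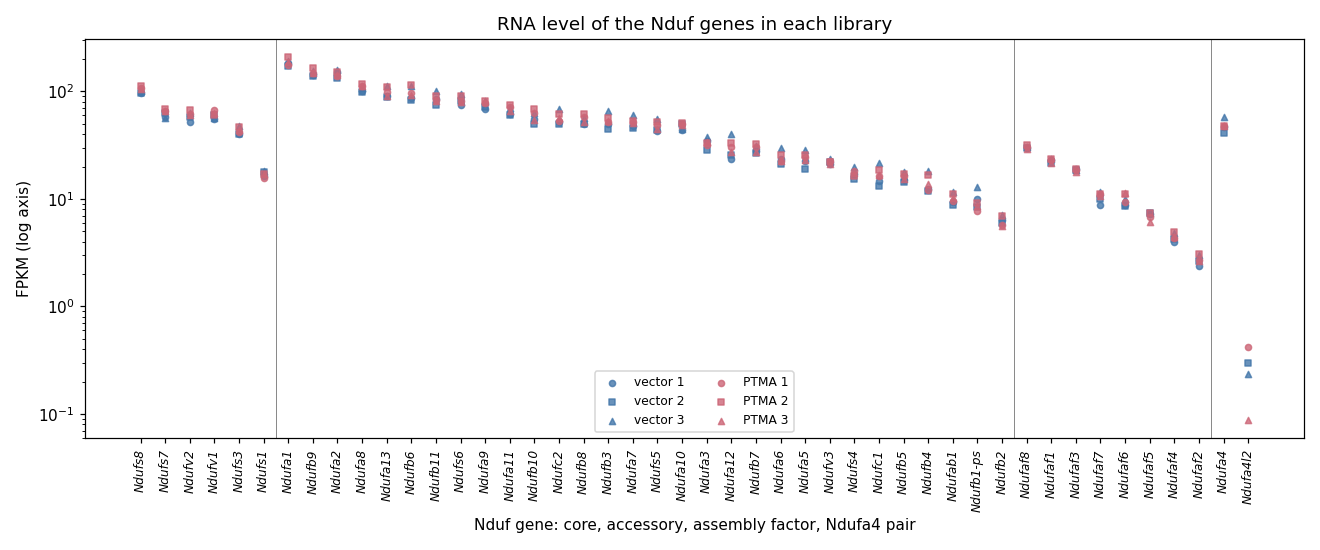
FPKM (log axis) of 46 Nduf genes in each of the 6 libraries, ordered by level within core subunits, accessory subunits, assembly factors and the Ndufa4 pair, with the vector libraries in blue and the PTMA libraries in red. Apart from Ndufa4l2, the points of a gene lie close together beside the span between genes, from 2.75 FPKM for Ndufaf2 to 186 FPKM for Ndufa1. The points of Ndufa4l2 lie below all others and spread from 0.0874 to 0.416 FPKM. The 2 libraries in which Ndufa4l2 had 0 counts cannot be drawn on a log axis.

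None of the 47 Nduf genes passed the test between PTMA and vector (edgeR quasi-likelihood, Benjamini-Hochberg over 16592 genes). Over all genes tested, 2 passed, which is 0.0121%. At an unadjusted p under 0.05 there was 1 Nduf gene, Ndufs7, where all genes tested gave 4.65%; DESeq2 and limma also called 0 of the Nduf genes after adjustment. The log2 fold change, PTMA minus vector, was above 0 for 29 of 47 members, against 46.8% of all genes tested. The median over the members was 0.03, beside -0.015 over all genes tested. The 95% confidence interval of the fold lay within 1.5-fold in either direction for 45 of 47 members, and for 9355 of the 16592 genes tested. Those genes have a lower median level (3.10 FPKM, beside 43.4 for the members), so the 2 shares are not like for like. The exceptions were Ndufb1-ps and the barely detected Ndufa4l2. All 3 PTMA libraries lay above all 3 vector libraries for 3 members (Ndufs7, Ndufv1 and Ndufa10), where 5.39% of all genes did so, and below them for 0 members, where 5.38% of all genes did so.

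**Figure D2:**
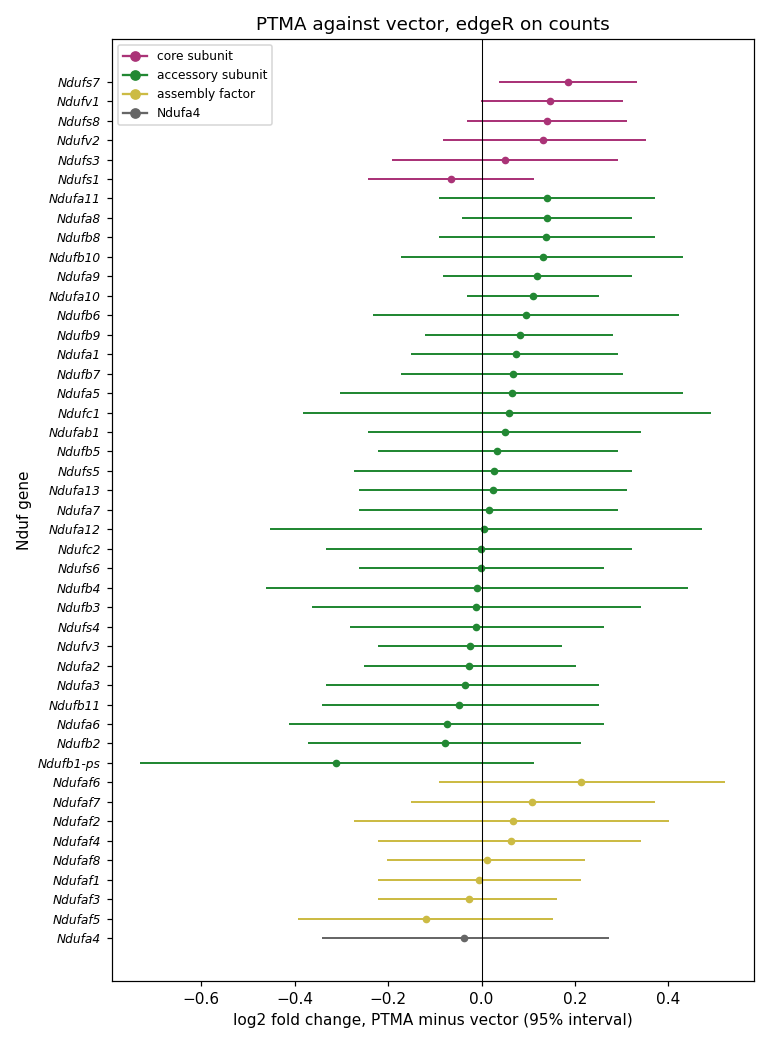
Log2 fold change of PTMA minus vector with its 95% confidence interval (edgeR, 3 libraries per group) for 45 Nduf genes by class, without Ndufa4l2. The interval of Ndufs7 alone lies clear of 0 in the unadjusted fit, 5 of the 6 core subunits drawn lie to the right of 0, and the accessory subunits spread over both sides.

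The core subunits, which carry the cofactors, had 6 of 7 log2 fold changes above 0, with a median of 0.13, and 0 of 7 passed the test. Their summed level was 1074, 1076 and 1197 CPM in vector 1, 2 and 3 and 1179.6, 1245 and 1155 CPM in PTMA 1, 2 and 3. The PTMA libraries lay above vector 1 and vector 2, and vector 3 lay among the PTMA libraries. Whether core subunits differed from accessory subunits in their response was not tested.

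The Q module is the part of the peripheral arm where ubiquinone is reduced. There, Ndufs7 carries the last iron-sulfur cluster before ubiquinone (ENSMUSG00000020153, chromosome 10, 80249121 to 80256793, plus strand, GRCm38). It had 110.4, 114 and 112 CPM in vector 1, 2 and 3 and 125, 133 and 123 CPM in PTMA 1, 2 and 3. Every PTMA library was above every vector library and vector 3 lay between vector 1 and vector 2. The group means were 112 ± 1.87 and 127 ± 5.22 CPM (SD, n = 3 per group). The log2 fold change was 0.19 (SE 0.07, 95% interval 0.04 to 0.33), with an adjusted p of 0.951 (edgeR).

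Ndufs8, which holds a pair of iron-sulfur clusters next to that site, had 139.5, 132 and 152 CPM in vector 1, 2 and 3 and 155, 161 and 150.4 CPM in PTMA 1, 2 and 3 (log2 fold change 0.14 (SE 0.07)). Only vector 3 reached into the PTMA range, being above PTMA 3. Ndufs3, a structural core subunit of the Q module, had 40.1, 39.7 and 47.8 FPKM in vector 1, 2 and 3 and 42.2, 46.6 and 43.7 FPKM in PTMA 1, 2 and 3 (from counts, log2 fold change 0.05 (SE 0.10)), with vector 3 the highest of all libraries.

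In the N module, where NADH is oxidised, the core subunits were split. Ndufv1 binds the flavin and NADH (ENSMUSG00000037916, chromosome 19, 4007384 to 4012759, minus strand). It had 163, 167 and 172 CPM in vector 1, 2 and 3 and 197, 179 and 181 CPM in PTMA 1, 2 and 3, so that the groups did not overlap. The log2 fold change was 0.15 (SE 0.07, 95% interval -0.00 to 0.30) and the adjusted p was 0.951 (edgeR). Its partner Ndufv2, an iron-sulfur protein, had 125, 133 and 155 CPM in vector 1, 2 and 3 and 146, 163 and 144 CPM in PTMA 1, 2 and 3 (log2 fold change 0.13 (SE 0.10)), and vector 3 lay inside the PTMA range. Ndufs1, the largest core subunit and holder of most clusters of this module, was the one core subunit with a negative value, -0.07 (SE 0.08), from 148, 152 and 168 CPM against 140.4, 157 and 150.2 CPM, and its 2 groups overlapped.

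Levels of the core mRNAs spanned a wide range although the enzyme holds a single copy of each core subunit. Ndufs8 had 103 FPKM and Ndufs1 16.9 FPKM, means of 6 libraries. Ndufs7 (62.6), Ndufv2 (60.4) and Ndufv1 (60.2 FPKM) lay together, with ranges over libraries that overlapped. Ndufs1 has an exon union of 8086 bases, the longest of the members, beside a principal transcript of 2661 bases. Per kilobase of principal transcript Ndufs1 had 57.3 CPM, Ndufv2 85.0, Ndufs3 101, Ndufv1 106, Ndufs7 122 and Ndufs8 148 CPM, so Ndufs1 was the lowest core subunit on both scales.

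Among the 30 accessory subunits 18 log2 fold changes were above 0 and 12 below, the median was 0.03 and 0 passed the test. With libraries scaled to the same sum the median was 0.000, so no direction can be given for this class. Their summed level was 2358, 2183 and 2847 CPM in vector 1, 2 and 3 and 2515, 2747 and 2408 CPM in PTMA 1, 2 and 3. Vector 3 was the highest of all libraries and vector 2 the lowest, and both other vector libraries lay below every PTMA library.

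In the Ndufa family of 13 (Ndufab1 included, Ndufa4 not) 10 values were above 0, with a median of 0.05 and a range of -0.07 to 0.14. Ndufa10, a nucleoside-kinase-like subunit on the matrix face of the membrane arm (ENSMUSG00000026260, chromosome 1, 92439010 to 92473860, minus strand), had 164, 175 and 173 CPM in vector 1, 2 and 3 and 184, 189 and 179.5 CPM in PTMA 1, 2 and 3, with groups that did not overlap (log2 fold change 0.11 (SE 0.06), adjusted p = 0.951, edgeR). Ndufa8, an intermembrane-space subunit with twin cysteine motifs, had 97.0, 91.1 and 107 CPM in vector 1, 2 and 3 and 106, 114 and 106 CPM in PTMA 1, 2 and 3 (log2 fold change 0.14 (SE 0.08)), and only vector 3 reached the PTMA range. The 3 PTMA libraries and vector 3 stood together above vector 1 and vector 2.

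Ndufa9, a nucleotide-binding subunit at the junction of the 2 arms, showed the same layout, 161, 158 and 195 CPM against 183, 193 and 183 CPM, with a log2 fold change of 0.12 (SE 0.09). Ndufa1 had 85.7, 76.5 and 92.1 CPM against 82.0, 98.3 and 87.2 CPM (log2 fold change 0.07 (SE 0.10)). Ndufab1, the mitochondrial acyl carrier protein, which also serves fatty acid and lipoate synthesis, had 72.8, 64.4 and 92.3 CPM against 73.6, 86.2 and 77.9 CPM (log2 fold change 0.05 (SE 0.13)) and the lowest FPKM of the family (10.1). Its exon union of 6883 bases is second only to that of Ndufs1. Ndufa6, a LYR-motif protein that docks the acyl carrier protein on the enzyme, lay at the lower end of the family, with 47.5, 40.4 and 61.3 CPM against 45.5, 51.9 and 44.2 CPM (log2 fold change -0.07 (SE 0.15)). In this last gene vector 3 alone exceeded all PTMA libraries, while vector 1 lay within them.

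The 11 Ndufb subunits sit in the distal membrane arm. Their values were above 0 for 6 and below 0 for 5, with a median of 0.03. Ndufb9, another LYR-motif protein and the most abundant of the family (149.5 FPKM), had 163, 154 and 184 CPM in vector 1, 2 and 3 and 169.7, 192 and 168 CPM in PTMA 1, 2 and 3 (log2 fold change 0.08 (SE 0.09)). Ndufb8 had the highest value of the family, 0.14 (SE 0.10), from 176, 166 and 206 CPM against 204, 219.7 and 180.5 CPM. Its groups overlapped through vector 3, which exceeded PTMA 1 and PTMA 3.

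At the other end, Ndufb1-ps had the lowest log2 fold change of all 47 genes, -0.31 (SE 0.18, 95% interval -0.73 to 0.11, adjusted p = 0.951, edgeR). It had 13.1, 10.4 and 17.2 CPM in vector 1, 2 and 3 and 9.84, 11.9 and 11.03 CPM in PTMA 1, 2 and 3, and vector 2 lay within the PTMA libraries. Without vector 3 the value was -0.10 (SE 0.15). The gene shares 147 of its 1153 exon bases with Cpsf2 on the opposite strand, and the counting is not stated to use strand, so reads of these genes cannot be told apart there. Ndufb2 had 40.4, 35.5 and 45.7 CPM against 35.8, 44.2 and 35.0 CPM (log2 fold change -0.08 (SE 0.13)), with vector 3 and PTMA 2 as its high libraries.

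Ndufc1 and Ndufc2, small subunits where the membrane arm joins the peripheral arm, had values of 0.06 (SE 0.19) and -0.002 (SE 0.14). Ndufc1 had 24.5, 20.8 and 37.0 CPM in vector 1, 2 and 3 and 26.9, 31.2 and 27.6 CPM in PTMA 1, 2 and 3. Ndufc2 had 43.8, 40.2 and 59.2 CPM against 44.1, 51.9 and 47.1 CPM. Both were highest in vector 3 and lowest in vector 2, with the PTMA libraries between. The 4 accessory subunits with Ndufs or Ndufv names had 1 value above 0 and a median of -0.01. Ndufs6, a zinc-binding subunit and the most abundant of them (83.8 FPKM), had 76.2, 77.0 and 98.7 CPM against 81.7, 91.7 and 78.2 CPM, and Ndufs4, whose loss in mice gives a Leigh-like disease, had 51.9, 44.4 and 61.7 CPM against 54.8, 50.0 and 51.9 CPM. Their log2 fold changes were -0.002 (SE 0.11) and -0.01 (SE 0.12). Ndufv3, which sits at the flavin end, had 75.8, 74.5 and 86.8 CPM against 80.1, 79.7 and 73.4 CPM (log2 fold change -0.02 (SE 0.09)), and vector 3 was again the highest library in all 4 of these genes.

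The 8 assembly factors had 5 values above 0 and 3 below, a median of 0.04, and 0 passed the test. Their summed level was 192, 186 and 217 CPM in vector 1, 2 and 3 and 202, 214 and 194 CPM in PTMA 1, 2 and 3. The spread between vector libraries was as wide as that between all 6. For the early steps on the Q module, Ndufaf3 had 38.6, 35.9 and 39.0 CPM against 37.3, 38.8 and 35.2 CPM (log2 fold change -0.03 (SE 0.08)) and its partner Ndufaf4 had 17.4, 17.8 and 21.8 CPM against 18.9, 21.7 and 18.9 CPM (log2 fold change 0.06 (SE 0.12)). In both, the groups overlapped.

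Of the enzymes that modify core subunits during assembly, Ndufaf5, which hydroxylates Ndufs7, had 14.4, 14.0 and 15.4 CPM in vector 1, 2 and 3 and 13.4, 14.9 and 12.1 CPM in PTMA 1, 2 and 3 and the lowest value of the class, -0.12 (SE 0.12, 95% interval -0.39 to 0.15). PTMA 1 and PTMA 3 lay below all vector libraries and PTMA 2 within them. Its partner Ndufaf8 had 28.1, 26.4 and 29.3 CPM against 28.1, 29.8 and 26.6 CPM (log2 fold change 0.01 (SE 0.09)). Ndufaf7, a protein methyltransferase, had 34.6, 37.5 and 46.4 CPM against 43.4, 43.4 and 41.0 CPM (log2 fold change 0.11 (SE 0.12)), with vector 3 the highest. Ndufs7 and the enzyme that modifies it thus had values of opposite sign (0.19 and -0.12), neither of them past the test.

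Ndufaf6, a factor related to phytoene synthases, had the largest log2 fold change of all 47 genes, 0.21 (SE 0.13, 95% interval -0.09 to 0.52, adjusted p = 0.951, edgeR). It had 12.3, 11.3 and 14.2 CPM in vector 1, 2 and 3 and 12.9, 15.3 and 15.6 CPM in PTMA 1, 2 and 3. PTMA 2 and PTMA 3 lay above every vector library and PTMA 1 lay below vector 3. Without vector 3 the value was 0.31 (SE 0.13). Ndufaf1, which works with Ecsit, Acad9 and Tmem126b on the membrane arm, had 39.2, 34.3 and 40.9 CPM against 38.6, 39.6 and 35.8 CPM (log2 fold change -0.01 (SE 0.10)). Ndufaf2, a paralog of the subunit Ndufa12 that holds its place late in assembly, had 7.97, 8.43 and 10.3 CPM against 8.90, 10.4 and 8.75 CPM (log2 fold change 0.07 (SE 0.15)). Of its 2978 exon bases, 1955 are shared with a noncoding RNA gene of the opposite strand, so its level is uncertain.

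Ndufa4 bears a complex I name but is a subunit of cytochrome c oxidase, complex IV. It had 72.8, 60.9 and 92.2 CPM in vector 1, 2 and 3 and 73.5, 74.5 and 72.0 CPM in PTMA 1, 2 and 3, nearly equal in the 3 PTMA libraries and widely spread in the vector libraries (log2 fold change -0.04 (SE 0.13)). Its paralog Ndufa4l2, known as a gene induced by hypoxia, had 0, 23 and 19 counts in vector 1, 2 and 3 and 33, 0 and 7 counts in PTMA 1, 2 and 3. Both groups hold a library at 0, which allows up to 0.0546 CPM in vector 1 and 0.0449 CPM in PTMA 2, a floor of 3 counts that covers counting error only. Its fold change could not be placed, with a 95% interval of -3.20 to 2.97 on the log2 scale.

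Most members shared one pattern over the 6 libraries, which did not follow the groups. Vector 3 was the highest library for 30 of 47 members and PTMA 2 for 14, where 22.4% and 15.6% of all genes tested were highest there. Vector 2 was the lowest for 31 members and vector 1 for 10, where 20.8% and 15.1% of all genes were. Vector 3 was highest for 22 of 30 accessory subunits, 5 of 8 assembly factors and 2 of 7 core subunits. The mean standardised log2 CPM of 46 members (without Ndufa4l2) was -0.49, -1.13 and 1.10 for vector 1, 2 and 3 and 0.01, 0.82 and -0.30 for PTMA 1, 2 and 3, so the extremes of the profile both lay in the vector group. Of the 46 members 36 had a Pearson correlation over 0.8 with this profile over the 6 libraries, where 27.5% of 4360 other protein-coding genes of at least 10 FPKM did. This is a description, since each member also enters the profile and all genes share libraries and scaling.

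The members least like the profile were Ndufv1 (r = 0.26), Ndufs7 (r = 0.30) and Ndufa10 (r = 0.34), the same 3 whose groups did not overlap. These are not independent observations, since a gene with vector 3 below every PTMA library cannot closely follow a profile peaking there. Among the subunits that followed the profile best were Ndufb6 (r = 0.99), Ndufb5 (r = 0.98), Ndufa13 (r = 0.98) and Ndufs3 (r = 0.98). Outside the family, the most similar of the 4360 genes were Cd3d of the T cell receptor complex (r = 0.998), Klhdc2 and Uri1 (r = 0.995 each), and Atp5h of ATP synthase and Rpf1 of ribosome biogenesis (r = 0.993 each). Cd3d had 846, 795 and 993 CPM in vector 1, 2 and 3 and 897, 959 and 869 CPM in PTMA 1, 2 and 3. These correlations rest on 6 libraries and carry no test.

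**Figure D3:**
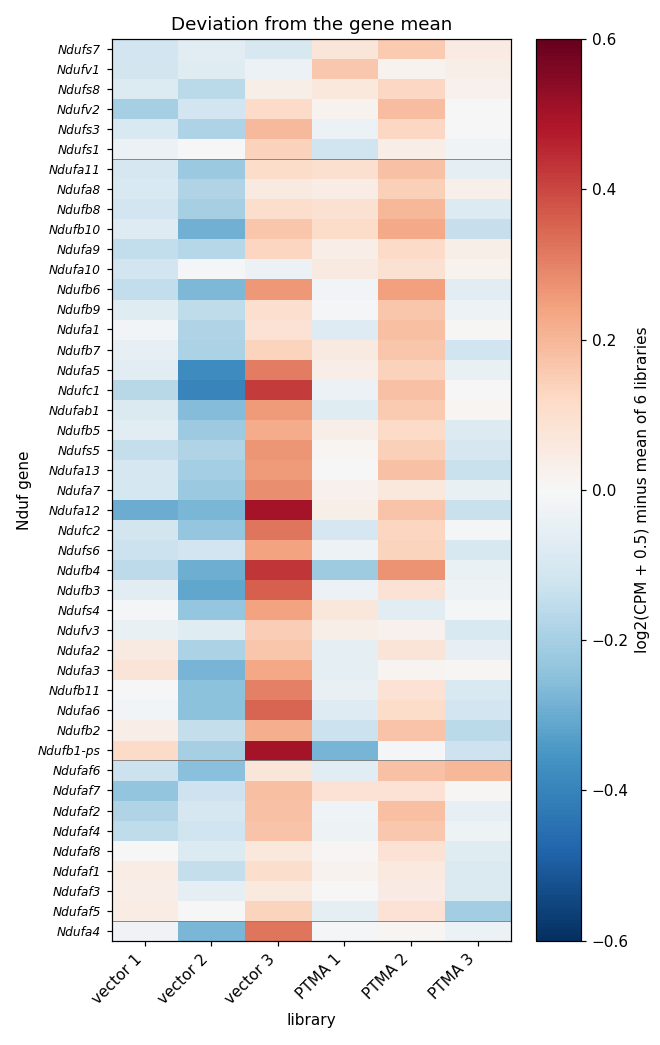
Log2(CPM + 0.5) of 45 Nduf genes (rows, by class and by fold change within it) in each library (columns), as the deviation from the mean of the gene over 6 libraries; red is above and blue below that mean. The vector 3 column is red for most accessory subunits and the vector 2 column blue, while Ndufs7, Ndufv1 and Ndufa10 lie at or below their mean in all vector libraries and above it in all PTMA libraries.

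The excess of vector 3 over the mean of vector 1 and vector 2 had a median of 1.25 times over the Nduf genes, 1.12 in core subunits, 1.29 in accessory subunits and 1.16 in assembly factors, beside 0.992 over all genes tested. It was also 1.33 for cytosolic and 1.23 for mitochondrial ribosomal proteins, 1.24 for the nuclear subunits of complexes II to V and 1.33 for the mitochondrially encoded complex I subunits. Within the family it was highest for Ndufa12 (1.73), Ndufc1 (1.63) and Ndufb4 (1.58) among the 46, and lowest for Ndufs7 (0.993), Ndufa10 (1.02) and Ndufv1 (1.04). Ndufb4, a membrane-arm subunit, had 26.6, 24.2 and 40.3 CPM against 25.6, 36.0 and 28.9 CPM. The accessory mRNAs are short (median principal transcript of 812 bases) beside core (1623 bases) and assembly mRNAs (1308 bases) and all genes of at least 1 FPKM (2542 bases). Over those genes the excess of vector 3 went with shorter principal transcripts (Spearman rho -0.45 over 10885 genes, a description), and over the 46 members rho was -0.24. For the union of exons, rho over the 10885 genes was -0.39. The length correction in the fit of the 2 groups used the length implied by count and FPKM, which is close to that union. No correction for principal transcript length was run. In the corrected fit, 28 of 47 members were above 0 and the core median was 0.084, with 0 called.

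Without vector 3, 43 of 47 log2 fold changes were above 0, against 48.5% of all genes then tested. The medians became 0.171 for core, 0.178 for accessory subunits and 0.115 for assembly factors, and 17 members had an unadjusted p under 0.05, among them 6 of 7 core subunits, 9 of 30 accessory subunits and 2 of 8 assembly factors, where 15.4% of all genes did. None passed after adjustment (edgeR, lowest adjusted p = 0.196, for Ndufa9), and 0.00578% of all genes did. Among the 46 measured genes the largest shifts were those of Ndufa12 from 0.01 to 0.32, of Ndufc1 from 0.06 to 0.34 and Ndufb4 from -0.01 to 0.25. Ndufs7 (0.18) and Ndufv1 (0.17) stayed close to their values with all libraries, and Ndufs1 (-0.01) stayed near 0. Over 10885 genes of at least 1 FPKM, higher log2 fold changes without vector 3 went with shorter principal transcripts (Spearman rho -0.40). With all libraries that rho was -0.21. The 46 members are short (median 977 bases, beside 2542), so all genes are not a background of like length. Over the 46 members rho without vector 3 was -0.07. The part of length in these shifts was not tested.

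The other libraries moved the family as well. Without vector 1, 24 of 47 members were above 0, without vector 2 it was 20, without PTMA 1 it was 33, without PTMA 2 it was 18 and without PTMA 3 it was 40. The median of the accessory subunits was below 0 without vector 1 (-0.012), vector 2 (-0.057) or PTMA 2 (-0.014), and that of the assembly factors without PTMA 2 (-0.022). The core median remained above 0 in each of these fits, between 0.072 and 0.179, with 6 of 7 genes above 0 in all of them but the one without vector 2, where it was 5 of 7.

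**Figure D4:**
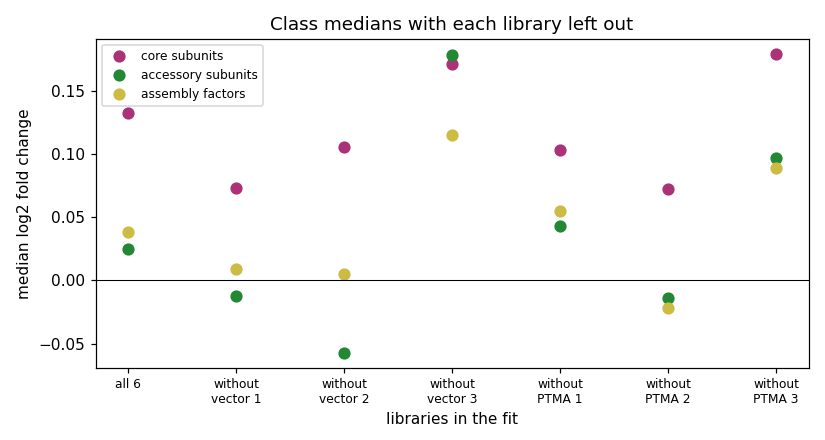
Median log2 fold change of core subunits (7 genes), accessory subunits (30) and assembly factors (8), with all 6 libraries and with each library left out in turn. The core medians stay between 0.072 and 0.179 in the reduced fits, while the accessory medians range from -0.057 to 0.178 and are above the core median only without vector 3.

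Ndufa12, an accessory subunit of the peripheral arm, has a processed pseudogene, Ndufa12-ps (chromosome 5, 130188395 to 130188796, GRCm38), whose reads are hard to tell from its own. The 402 bases of the pseudogene match the Ndufa12 mRNA (ENSMUSG00000020022, chromosome 10, 94198720 to 94221443, plus strand) at 99.5%, and the aligned 399 of 435 coding bases differ at A135G and T414C, counted from the first base of the start codon with the gene's base first. The stretch of coding bases 105 to 164 is shown from both, in GENCODE M21, since a fragment inside it can be assigned only by the base in capitals, at position 135:
Ndufa12: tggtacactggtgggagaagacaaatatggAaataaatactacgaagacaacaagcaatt
Ndufa12-ps: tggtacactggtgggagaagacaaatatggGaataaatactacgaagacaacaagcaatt

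The deposited counts split the pair differently in vector 3. Ndufa12 itself had 41.8, 42.5 and 72.9 CPM in vector 1, 2 and 3 and 52.9, 58.1 and 46.9 CPM in PTMA 1, 2 and 3. The pseudogene row had 21.7, 16.3 and 8.12 CPM in vector 1, 2 and 3 and 20.1, 25.0 and 22.1 CPM in PTMA 1, 2 and 3, which is 34.2, 27.8 and 10.0% of the pair in the vector and 27.5, 30.1 and 32.0% in the PTMA libraries. The gene was thus highest and its pseudogene lowest in vector 3. Summed, the pair had 63.4, 58.8 and 81.1 CPM against 72.9, 83.1 and 68.9 CPM, and the excess of vector 3 was 1.33 in place of 1.73. The log2 fold change of the sum was 0.15 (SE 0.13, adjusted p = 0.952, edgeR) in place of 0.01 (SE 0.20). How reads that match both were treated is not stated in the labels or headers.

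**Figure D5:**
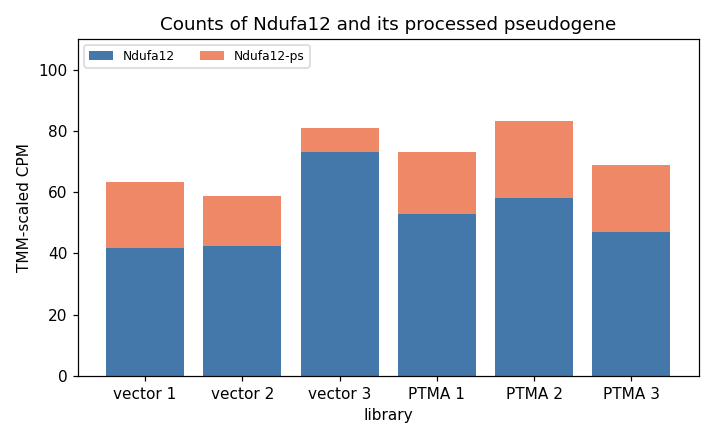
TMM-scaled CPM counted under Ndufa12 (blue) and under its processed pseudogene Ndufa12-ps (orange), stacked, in each library. The stack of vector 3 (81.1 CPM) lies between those of PTMA 1 (72.9) and PTMA 2 (83.1), but the pseudogene takes only 8.12 CPM of it, against 16.3 to 25.0 CPM elsewhere.

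The other pseudogenes took smaller shares. Ndufb4c is identical to Ndufb4 over all 390 bases and took 6.1 to 10.3% of that pair, and the excess of vector 3 was 1.553 in the sum and 1.585 in the gene. Ndufab1-ps (99.6% identity) took 3.7 to 5.7%, Ndufs5-ps (99.4%) 2.8 to 4.0% and Ndufs6b (96.6%) 0.6 to 1.2% of their pairs, and Ndufa11b (94.8%) had 0 to 6 counts. Adding pseudogene counts to their genes left 0 Nduf genes called. Exons of 20 members share bases with another gene, most of them on the opposite strand: Ndufa13 with Tssk6 (375 of 1251 bases), Ndufb6 with Smim27 (257 of 659) and Ndufb5 with Mrpl47 (616 of 4995). Levels of these genes are uncertain to that extent.

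Because the members varied together, their promoters were searched for motifs of factors known to drive nuclear respiratory genes. RefSeq windows (GRCm38.p6) from 250 bases before to 50 after the transcript start were at hand for 40 members, 42 windows in all. For Ndufa1, Ndufa9, Ndufa13, Ndufaf1 and Ndufb2 the bases after the start were not found near the start of an annotated transcript. Their windows were kept in the shares. Both strands were searched for exact matches to GCGCA and GCGC with any 1 base between (NRF1), CCGGAAG (ETS factors such as GABP), AANATGGC (YY1), GGGCGG (SP1) and TGACGTCA (CRE). At least 1 match was present in 23.8, 14.3, 33.3, 52.4 and 7.1% of the 42 windows, in that order. The shares were 12.5, 23.3, 9.9, 64.6 and 3.4% for 4446 windows of genes with at least 10 FPKM and 4.6, 8.9, 6.1, 35.7 and 1.8% for all 32851 windows. Matches to the NRF1, YY1 and CRE motifs were thus more frequent in Nduf windows than in either background. The CRE motif had only 3 windows, that of Ndufb2 among them. Matches to the ETS and SP1 motifs were less frequent than in expressed genes. These differences carry no test.

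An NRF1 match was in 0 of 5 core, 8 of 29 accessory and 2 of 7 assembly factor windows. An ETS match was in 2 of 5, 2 of 29 and 2 of 7 of them. With so few core windows these shares cannot set the classes apart. Set out by motif, the excess of vector 3 had a median of 1.29 in 9 genes with an NRF1 match and 1.26 in 31 without, and of 1.26 in 14 genes with and 1.26 in 26 without a YY1 match. It was 1.155 in 6 genes with and 1.28 in 34 without an ETS match, 1.255 in 21 and 1.28 in 19 for SP1, and 1.205 in 3 and 1.27 in 37 for CRE, all without a test and with ranges that overlapped. Shown are 120 bases upstream of the start, 5′ to 3′ on the gene's strand, for 4 members whose window holds no annotated exon base. They are Ndufaf4, with an NRF1 match and 2 overlapping SP1 matches, Ndufb6, which followed the common profile best, Ndufv2, a core subunit, and Ndufs8, a core subunit with no match in this stretch. Capitals mark the matches:
Ndufaf4 chr4:24897963-24898082 (+): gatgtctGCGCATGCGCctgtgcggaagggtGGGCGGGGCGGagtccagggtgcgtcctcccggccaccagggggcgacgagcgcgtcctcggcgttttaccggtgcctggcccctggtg
Ndufb6 chr4:40279422-40279541 (-): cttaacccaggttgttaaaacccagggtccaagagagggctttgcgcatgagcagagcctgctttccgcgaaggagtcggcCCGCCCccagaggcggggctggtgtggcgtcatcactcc
Ndufv2 chr17:66101560-66101679 (-): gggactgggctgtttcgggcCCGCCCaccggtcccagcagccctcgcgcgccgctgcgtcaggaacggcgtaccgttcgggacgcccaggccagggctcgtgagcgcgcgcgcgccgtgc
Ndufs8 chr19:3912775-3912894 (-): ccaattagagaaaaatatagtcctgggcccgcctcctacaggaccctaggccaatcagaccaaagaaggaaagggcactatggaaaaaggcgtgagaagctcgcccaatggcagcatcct

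The NRF1 match of Ndufaf4 begins at position -113 from the start, and its SP1 matches begin at -89 and -84. The SP1 match of Ndufb6 begins at -39 and that of Ndufv2 at -100. A match is only a match of letters, and binding was not measured here. RefSeq entries of Ndufa2, Ndufa4l2, Ndufaf6, Ndufb1-ps, Ndufb9 and Ndufs1 were not used here.

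Genes that work with the Nduf products gave no call either. Of 12 other complex I assembly factors, 6 values were above 0 and 6 below, and 0 passed the test (edgeR, DESeq2 and limma). With edgeR, 1 had an unadjusted p under 0.05, where 4.65% of all genes tested did. The lowest p-values were those of Sfxn4, Foxred1 and Acad9. Sfxn4, a sideroflexin needed for assembly, had 4.07, 3.90 and 4.03 CPM in vector 1, 2 and 3 and 3.44, 2.69 and 2.83 CPM in PTMA 1, 2 and 3, each PTMA library below each vector library, with a log2 fold change of -0.42 (SE 0.18) and an adjusted p of 0.951 (edgeR). Foxred1, an oxidoreductase-like factor, had 54.7, 61.5 and 64.1 CPM against 64.3, 71.2 and 65.0 CPM and a value of 0.15 (SE 0.09). Acad9, an acyl-CoA dehydrogenase that also serves in assembly, had 66.3, 66.6 and 66.8 CPM against 72.2, 72.0 and 69.7 CPM and a value of 0.10 (SE 0.07). The groups of Foxred1 and Acad9 did not overlap, PTMA being the higher, the first by a narrow margin between PTMA 1 and vector 3. The groups of Dmac2, named after its values were seen, did not overlap either, with 53.6, 52.2 and 51.7 CPM against 51.4, 49.9 and 48.2 CPM (log2 fold change -0.075 (SE 0.07)), PTMA being the lower. This made 2 of 12 with PTMA higher and 2 with PTMA lower, where 5.39% and 5.38% of all genes tested were. Whether this list differs from all genes was not tested.

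The 7 mitochondrially encoded subunits, which form the proton-pumping membrane arm, had 4 values above 0, a median of 0.000, 0 with an unadjusted p under 0.05 and 0 called (edgeR, DESeq2 and limma). Their summed level was 2793, 2735 and 3509.9 CPM in vector 1, 2 and 3 and 2758, 3177 and 3439.9 CPM in PTMA 1, 2 and 3. Here PTMA 3 was high together with vector 3, whereas PTMA 3 was among the lower libraries of the nuclear subunits. The most abundant, mt-Nd1, had 1073, 1058 and 1359.8 CPM against 1122, 1306 and 1335 CPM, with a log2 fold change of 0.11 (SE 0.11). Of 8 transcription factors and coactivators known for nuclear respiratory genes, 7 could be tested, 0 had an unadjusted p under 0.05 and 0 passed (edgeR, DESeq2 and limma). Nrf1 had a value of 0.09 (SE 0.07), Gabpa of -0.003 (SE 0.09), Yy1 of -0.05 (SE 0.08) and Sp1 of -0.20 (SE 0.10). The coactivator gene Ppargc1a had at most 0.143 CPM in any library and was not tested.

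Set beside other groups of nuclear mitochondrial genes, the Nduf median of 0.03 with 29 of 47 above 0 stood near that of the nuclear subunits of complexes II to V (0.02, 27 of 44). Mitochondrial ribosomal proteins had a median of 0.07 with 69 of 78 above 0. Cytosolic ribosomal proteins had -0.03 with 24 of 84 above 0, where 46.8% of all genes tested were above 0. In these 3 lists 0 genes passed the test. An unadjusted p under 0.05 was found for 1 of 44, 2 of 78 and 1 of 84, where all genes tested gave 4.65% (edgeR). All the lists rest on the same 6 libraries, and no difference between the lists was tested.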

How the data were processed

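Poly(A) RNA of the 6 libraries was read by paired-end Illumina NovaSeq sequencing, per the labels' protocols, which also speak of an adipose type, at odds with the labelled CD8+ T cells. The authors deposited 1 table with raw read counts per gene and library, not normalized, and with FPKM (fragments per kilobase, relative to library size), per the file headers. Tools in the submitters' processing notes are Bowtie 0.12.2, HISAT2 2.0 and StringTie 1.3.0, and the build named there is mm8. The table's coordinates are those of GRCm38, since all 47 Nduf genes share a start or end with GENCODE M21. Which program counted reads, whether it used strand and what it did with multiply matching reads is not given in the sources used here. Gene by gene, dividing count by FPKM gave a length with a median of 1.12 times the union of its exons, and 82.2% of genes lay within 10% of that.

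Groups and replicate numbers came from the sample titles. Counts were tested with edgeR 4.0.16 (R 4.3.3): TMM scaling, filterByExpr with a minimum count of 10, the quasi-likelihood test on group alone, and Benjamini-Hochberg adjustment over all 16592 genes tested at 0.05, with about 8.93 degrees of freedom. Differences are PTMA minus vector. CPM are TMM-scaled, and levels between genes are compared per length only. Alternatives were other scalings, no filter, DESeq2 1.42.0, limma 3.58.1 on log2(FPKM + 1) and log2(FPKM + 0.1) for genes of at least 1 FPKM, a replicate block, length and GC corrections, pseudogene counts added to their genes, and leaving out each library; the GC and pseudogene alternatives were chosen after seeing the data. The edgeR step was tested on simulated counts with known changes. Replicates of a group differed with a chi-square per gene of 24.3 to 134.2, so none was a duplicate. Total counts, given in the report, set a floor of 3 counts, 0.0449 to 0.0546 CPM per library.

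The Nduf genes, the lists and the tests were chosen with earlier results of these data known. Named genes were the core subunits, all Ndufaf genes, Ndufa4, Ndufa4l2 and Ndufab1, in each accessory name family the gene with the highest and lowest FPKM and the smallest p, the 3 largest and 3 smallest fold changes, up to 3 other assembly factors by p, and the 5 genes most like the common profile. Ndufa6, Ndufa9, Ndufa12, Ndufb4, Ndufb7 and Ndufb8, the genes given as closest to or farthest from the profile and those of overlapping pairs were added after their values were seen. 1 gene enters the counts, sums and medians but is not reported here on its own.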

Additional observations from a re-analysis of the deposited data

How the results depend on the processing

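No Nduf gene was called under any of the 16 alternatives run, with lowest adjusted p-values over the members of 0.196 to 1. The number of genes called in all was 2; it was 47 with DESeq2, 1 with limma on log2(FPKM + 1), 1 with limma on log2(FPKM + 0.1), 0 with no filter on low counts, and 0 to 4 when a library was left out. The number of Nduf genes at an unadjusted p under 0.05 was 1; it was 2 with median-of-ratios size factors, with no filter, with DESeq2 and with limma at either pseudocount, and 0 to 17 when a library was left out, the 17 without vector 3. The cause was not tested. The number of Nduf genes above 0 was 25 with libraries scaled to the same sum, 28 with the length correction, 30 with the GC correction, 32 with median-of-ratios size factors and 35 with DESeq2. The medians of the family and its classes moved by less than the spread between libraries of a group in each alternative. Leaving out a library gave -0.050 to 0.174 for the family. Of single genes, 22 moved by more than their standard error without vector 3 and 1 without PTMA 1, and 0 did under the other alternatives. With the replicate number as a block, 0 genes were called in all, 1 Nduf gene had an unadjusted p under 0.05 and the family median was 0.053. The labels do not say whether the replicate numbers pair samples. Correlations of deviations between vector and PTMA libraries of one number were 0.18, -0.24 and -0.19. Between libraries of differing number they ran from -0.32 (vector 1 with PTMA 2) to 0.42 (vector 3 with PTMA 2). With 3 libraries per group these values cannot decide whether samples were paired. Depth limits only Ndufa4l2 among the members.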
